A study of Rattus norvegicus with 16 samples.

Results

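The genes described here set the shape and turnover of mitochondria in the rat left ventricle: Mfn1, Mfn2 and Opa1 for fusion, Dnm1l, Fis1, Mff and Mtfp1 for fission, and Pink1 for mitophagy. Probe sets were taken by exact gene symbol in the annotation table of the array platform, without use of their values. This gave 11 probe sets for the 8 genes, of 31042 probe sets tested and 14217 genes named on the array. The genes themselves were chosen with earlier results of these data known. Opa1, Dnm1l and Mff had a pair of probe sets each and the other 5 genes had 1. For each gene the probe set with the higher mean over all arrays, called the bright one, stood for the gene.

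Ventricular RNA was taken from females aged about 7 months, in 4 groups of 4 rats with 1 array per rat. Trained High Capacity Runners (HCR) and sedentary HCR came from generation 16 of a line bred from N:NIH stock for long treadmill running. Trained Low Capacity Runners (LCR) and sedentary LCR came from the parallel line bred for short running. The training groups ran uphill intervals 5 days per week for 8 weeks at 85 to 90% of maximal oxygen uptake, and the sedentary controls were matched for age. Both lines share the founder stock, and because each line is a single selected population, selection and drift between the lines cannot be told apart. The rats were compared by line within each training state and by training within each line, which asks how inborn and trained aerobic capacity relate to RNA levels in the heart.

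Mitochondria of the heart are remodelled by a balance of fusion and fission. The mitofusins Mfn1 and Mfn2 are GTPases that tether and fuse outer membranes, and Opa1 is the GTPase that fuses inner membranes and shapes cristae. Dnm1l encodes Drp1, the dynamin-related GTPase that constricts and cuts the organelle after it is drawn to the outer membrane by receptors such as Mff, with Fis1 as another outer membrane protein linked to fission. Mtfp1 encodes an inner membrane protein linked to fission in cultured mammalian cells. Pink1 is a kinase that builds up on damaged mitochondria and marks them for removal by mitophagy with the ubiquitin ligase Parkin. These steps are also controlled after transcription, by cleavage of Opa1, phosphorylation of Drp1 and import of Pink1, which RNA levels do not show.

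Values are the authors' RMA values, taken as log2, and differences are on that scale. Array medians lay between 5.85 and 5.95 and pairs of arrays correlated at r = 0.984 to 0.995 over all probe sets, with no pair of identical arrays. HCR sedentary rat 5 stood apart from its label: its 4 Xist probe sets read 3.76 to 4.94, against 7.56 to 10.34 in the other 15 rats, all labelled female. Many of the member, list and marker results that rest on this rat are given with and without it, and the others only with it. Without it the probe sets called between the sedentary lines numbered 112, against 1549 with all arrays. The sedentary HCR arrays also had a narrower spread of values than the sedentary LCR arrays, with interquartile ranges of 2.02 ± 0.057 and 2.17 ± 0.026 (SD, n = 4 each). The exact two-sided permutation p was 0.0286, the smallest that 4 against 4 arrays can give, and 0.114 after Benjamini-Hochberg adjustment over 8 such tests. In trained HCR arrays the range was 2.13 ± 0.052 (SD, n = 4), and against sedentary HCR the same permutation test gave p = 0.0571 (adjusted 0.114). The part of these differences in spread in the line results and in the HCR training results was not tested. Cardiomyocyte markers such as Myh6 and Tnnt2 summed to between 109485 and 115766 on a linear scale on every array, so the defining markers of the labelled tissue were bright throughout. The ventricle is a mix of cell types, so fewer cells of a type and less RNA per cell cannot be told apart.

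The promoter windows of 4 members are shown because 3 of them, Mtfp1, Mfn1 and Opa1, had the lowest unadjusted p-values for training, while Pink1 had a training difference close to 0. Each runs from 250 bases before to 50 bases after the start used for the gene in a set of GRCr8 promoters. The windows are written 5′ to 3′ on the strand of the gene, with motif matches in capitals. For Mtfp1 and Pink1 this start is the 5′ end of the RefSeq gene span, while for Mfn1 and Opa1 it lies inside the span. The Mtfp1 window lies at chr14:83195804-83196103 on the minus strand and that of Mfn1 at chr2:117241508-117241807 on the plus strand. The Opa1 window lies at chr11:84689851-84690150 and that of Pink1 at chr5:155825901-155826200, both on the minus strand.
Mtfp1: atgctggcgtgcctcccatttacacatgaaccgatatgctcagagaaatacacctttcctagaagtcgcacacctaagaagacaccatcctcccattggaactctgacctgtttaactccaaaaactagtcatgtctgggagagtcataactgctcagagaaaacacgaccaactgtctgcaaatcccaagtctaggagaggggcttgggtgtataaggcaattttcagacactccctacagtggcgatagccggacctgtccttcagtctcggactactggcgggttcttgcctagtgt
Mfn1: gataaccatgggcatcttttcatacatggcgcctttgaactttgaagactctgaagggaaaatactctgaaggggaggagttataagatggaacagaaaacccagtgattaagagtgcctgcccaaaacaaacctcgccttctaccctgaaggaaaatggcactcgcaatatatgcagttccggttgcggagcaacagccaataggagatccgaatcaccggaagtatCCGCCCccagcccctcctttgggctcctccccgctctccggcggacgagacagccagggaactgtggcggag
Opa1: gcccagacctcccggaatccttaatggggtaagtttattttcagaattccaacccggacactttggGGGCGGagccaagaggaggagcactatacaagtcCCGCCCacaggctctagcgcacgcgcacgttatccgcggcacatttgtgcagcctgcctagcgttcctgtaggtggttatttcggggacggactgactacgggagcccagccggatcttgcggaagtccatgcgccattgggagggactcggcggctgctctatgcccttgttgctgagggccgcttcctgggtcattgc
Pink1: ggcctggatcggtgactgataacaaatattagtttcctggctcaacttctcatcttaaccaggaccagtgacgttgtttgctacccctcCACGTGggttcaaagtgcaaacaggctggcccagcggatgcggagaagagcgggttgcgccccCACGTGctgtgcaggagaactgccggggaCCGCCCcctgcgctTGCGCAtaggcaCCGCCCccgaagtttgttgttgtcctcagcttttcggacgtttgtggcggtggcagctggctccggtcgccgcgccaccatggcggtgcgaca
The motifs searched on both strands were the nuclear receptor element AAGGTCA, the E-box CACGTG, the core of the NRF1 element TGCGCA, the cAMP response element TGACGTCA and the GC box GGGCGG. They occur in 4.61%, 6.42%, 7.24%, 1.83% and 33.1% of all 33469 promoter windows, in that order. The Mtfp1 window held none of them, Mfn1 held 1 GC box and Opa1 held 2 GC boxes. Pink1 held 5 matches, of which 2 were E-boxes with first bases at positions -161 and -98 from the start, 1 was the NRF1 core at -55 and 2 were GC boxes. GC content was 49% for Mtfp1 and 60.7% for Pink1, against a median of 51.7% over all windows. Dnm1l and Mff, not shown, also had training differences close to 0, and their windows held 0 matches and 1 GC box. Fis1, also not shown, had a pair of windows with 4 and 2 matches. Among them were the NRF1 core at -116 in the first window and GC boxes in both. A match here is only a run of letters, and no binding was measured. A relation of motifs to training was not tested. Of the 8 members, 7 had an entry in the promoter table and Mfn2 was not matched.

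Averaged over the lines, Mtfp1 had the largest training difference of the 8 genes, followed by the fusion genes Opa1 and Mfn1, while Mfn2, Dnm1l, Mff and Pink1 differed little between trained and sedentary rats. None of these differences passed the test over all probe sets. Averaged over the lines, limma called 0 of the 11 member probe sets at an adjusted p of 0.05 or less, where 0.00644% of all probe sets were called. At an unadjusted p under 0.05 there were 3 of 11 member probe sets, where 9.24% of all probe sets were. The 8 genes had a median training difference of 0.01, against a median of -0.004 over all genes, with 4 genes higher and 4 lower, and a median of -0.01 with the summarised values quantile-normalized. Without HCR sedentary rat 5, 6 were higher and 2 lower, with a median of 0.01. Within HCR, 0 of 11 were called, against 0% of all probe sets, and 3 of 11 had an unadjusted p under 0.05, against 13.9% of all. Within LCR, 0 of 11 were called, against 0.00322% of all, and 2 of 11 had an unadjusted p under 0.05, against 5.57% of all.

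Mtfp1, at chromosome 14, 83192013 to 83195853 in GRCr8 and read by probe set 1388661_at, was 9.05, 8.96, 8.70 and 8.87 in HCR trained rats 3 to 6, against 8.63, 8.62, 8.56 and 8.70 in HCR sedentary rats 3 to 6. In LCR it was 8.98, 8.92, 9.04 and 9.07 in trained rats 1 to 4, against 8.82, 8.60, 8.70 and 8.47 in sedentary rats 2, 3, 5 and 6. The LCR groups did not overlap, with every trained rat above every sedentary rat. The HCR groups met at 8.70, where trained rat 5 read just below sedentary rat 6, and the other 3 trained rats lay above all sedentary rats. Over both lines, 7 of 8 trained rats lay above all 8 sedentary rats, the exception being HCR trained rat 5.

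The Mtfp1 training difference averaged over lines was 0.31 ± 0.056 (SE), a 1.24-fold higher level in trained rats with a 95% interval of 1.14 to 1.34. Its unadjusted p of 4.42e-05 ranked 11 among all probe sets, and its limma adjusted p was 0.116, so it was not called. The difference was 0.26 ± 0.079 in HCR (adjusted p = 0.227), or 0.24 ± 0.087 without HCR sedentary rat 5 (adjusted p = 0.487), and 0.35 ± 0.079 in LCR (adjusted p = 0.428). The HCR response minus the LCR response was -0.09 ± 0.11, with an interval of -0.33 to 0.15 and an adjusted p of 0.794. Leaving out each array in turn gave training differences of 0.28 to 0.34 with adjusted p from 0.0738 to 0.294. Without HCR sedentary rat 5 it was 0.30 ± 0.059 (adjusted p = 0.249).

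**Figure D1:**
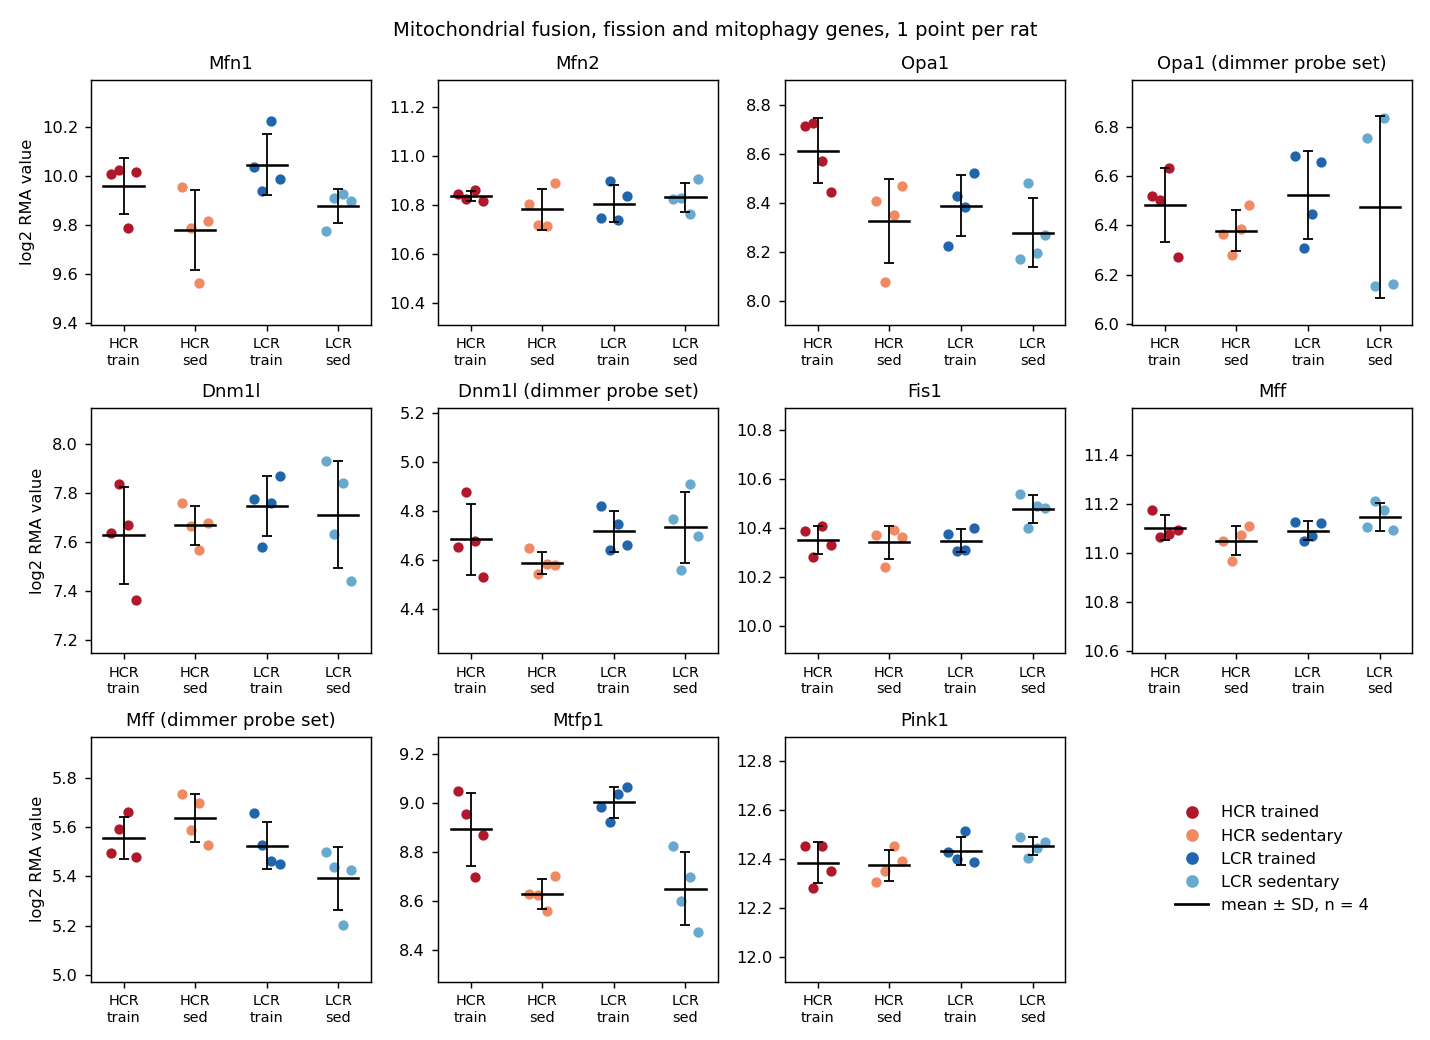
Log2 RMA value of each rat for the 11 member probe sets, in the order HCR trained, HCR sedentary, LCR trained and LCR sedentary. Points are rats, and black bars are the mean ± SD of 4 rats. Every panel spans 1 log2 unit, so heights can be compared as differences but not as levels between panels. Trained rats sit above sedentary rats for Mtfp1 in both lines except HCR trained rat 5, while Mfn2, Pink1 and the bright probe set of Mff keep within narrow ranges.

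**Figure D2:**
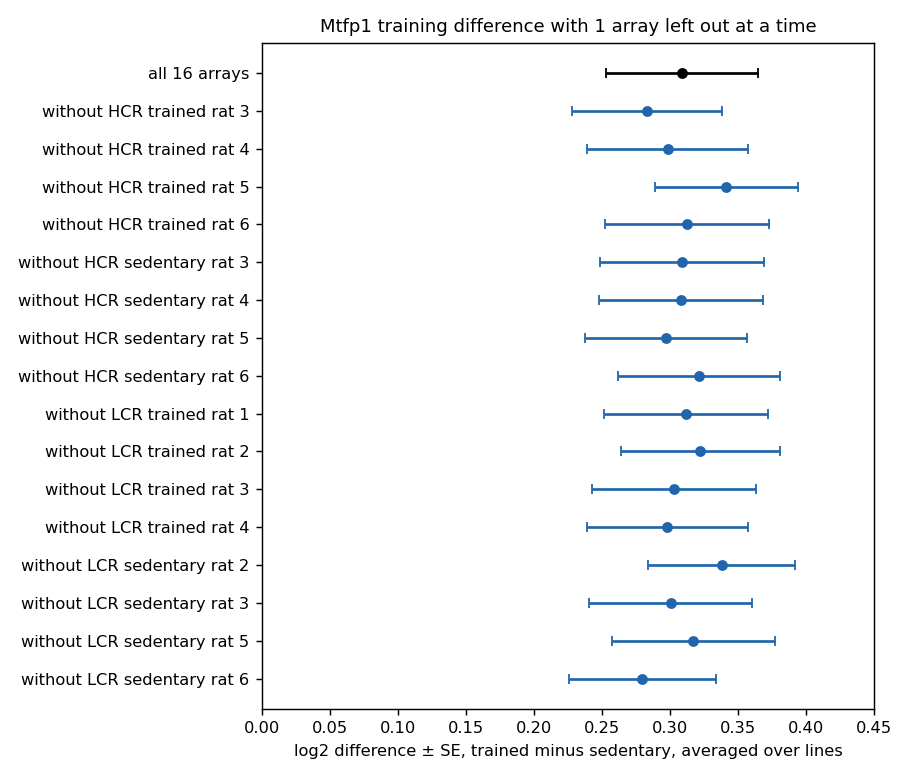
Mtfp1 training difference averaged over lines, as log2 difference ± SE, with all 16 arrays (black) and with each array left out in turn (blue). All values lie between 0.28 and 0.34. None was called after adjustment over all probe sets.

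Mfn1, the mitofusin at chromosome 2, 117240525 to 117288017 (GRCr8), read by probe set 1371717_at, was 10.01, 10.03, 9.79 and 10.02 in HCR trained rats 3 to 6, against 9.96, 9.79, 9.56 and 9.82 in HCR sedentary rats 3 to 6. In LCR it was 10.04, 9.94, 10.22 and 9.99 in trained rats 1 to 4, against 9.78, 9.91, 9.93 and 9.90 in sedentary rats 2, 3, 5 and 6. The LCR groups did not overlap, though the lowest trained rat and the highest sedentary rat lay close together, and in HCR trained rat 5 lay among the sedentary rats. Mfn1 and Mtfp1 were thus 2 of 11 member probe sets with all LCR trained rats above all LCR sedentary rats, where 1.32% of all probe sets showed this. The Mfn1 difference averaged over lines was 0.17 ± 0.059 (1.13-fold, interval 1.03 to 1.23, unadjusted p = 0.00969, adjusted p = 0.423). In HCR it was 0.18 ± 0.084 (adjusted p = 0.354) and without HCR sedentary rat 5 it was 0.11 ± 0.080 (adjusted p = 0.689). Averaged over lines without that rat, the Mfn1 difference was 0.14 ± 0.054 (adjusted p = 0.636).

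Opa1, at chromosome 11, 84612943 to 84690025, was read by 2 probe sets that did not give the same picture. The bright one, 1387225_at, was 8.72, 8.73, 8.57 and 8.44 in HCR trained rats 3 to 6, against 8.41, 8.08, 8.35 and 8.47 in HCR sedentary rats 3 to 6. In LCR it was 8.23, 8.43, 8.39 and 8.52 in trained rats, against 8.17, 8.48, 8.20 and 8.27 in sedentary rats. In HCR 3 of 4 trained rats lay above all sedentary rats, and in LCR the groups overlapped widely. Averaged over lines the bright probe set differed by 0.20 ± 0.068 (1.15-fold, interval 1.04 to 1.27, unadjusted p = 0.00947, adjusted p = 0.419) and the dimmer one, 1384608_at, by 0.08 ± 0.10 (adjusted p = 0.843). In HCR alone the bright probe set differed by 0.29 ± 0.096 (adjusted p = 0.249), and in LCR by 0.11 ± 0.096 (adjusted p = 0.986). The HCR response minus the LCR response was 0.18 ± 0.14 and did not pass (adjusted p = 0.65). Without HCR sedentary rat 5 the HCR difference was 0.30 ± 0.11 (adjusted p = 0.486), and that averaged over lines was 0.20 ± 0.073 (adjusted p = 0.597).

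The third fusion gene, Mfn2 at chromosome 5, 163587463 to 163617363, ranged only from 10.74 to 10.90 in the 8 trained rats and from 10.72 to 10.91 in the 8 sedentary rats. Its training difference of 0.01 ± 0.039 had a 95% interval of -0.07 to 0.10. Pink1, at chromosome 5, 155813838 to 155825950, was as flat, with 12.28 to 12.52 in trained rats and 12.31 to 12.49 in sedentary rats and a difference of -0.004 ± 0.038 (interval -0.09 to 0.08). The bright probe set of the Drp1 receptor Mff differed by -0.002 ± 0.036, with an interval of -0.08 to 0.07. For these 3 genes the intervals leave out training differences as large as that of Mtfp1, and they do not show that the levels were equal.

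Dnm1l, the gene of the fission GTPase itself at chromosome 11, 98084049 to 98135663, had a training difference of -0.003 ± 0.075 with a wider interval of -0.16 to 0.16. Its bright probe set, 1369220_at, varied more between rats of a group, from 7.36 to 7.84 in HCR trained rats and from 7.57 to 7.76 in HCR sedentary rats. In LCR it ran from 7.58 to 7.87 in trained rats and from 7.44 to 7.93 in sedentary rats. The dimmer probe set, 1388022_a_at, lay near the floor of the array, above only 11.8% of probe sets, and differed by 0.04 ± 0.055 (adjusted p = 0.856).

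**Figure D3:**
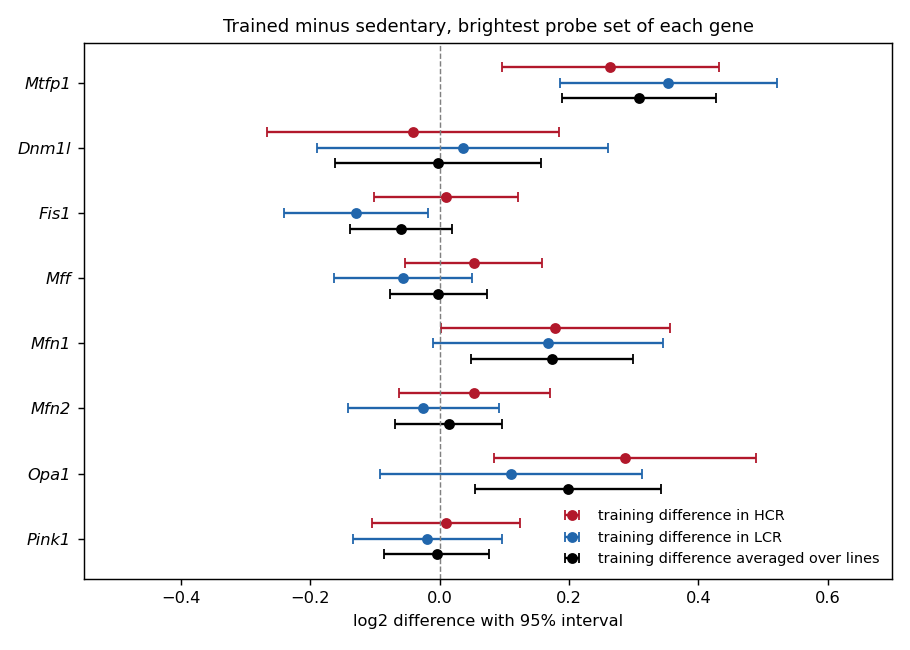
Trained minus sedentary log2 difference with its 95% interval for the bright probe set of each gene, in HCR (red), in LCR (blue) and averaged over lines (black). Averaged over lines, the intervals of Mtfp1 (0.31), Opa1 (0.20) and Mfn1 (0.17) lie above 0 before adjustment, and none of them was called.

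Between the lines, most of the 8 genes were slightly lower in sedentary HCR than in sedentary LCR rats, Fis1 most of all. This shared direction was lost with the summarised values quantile-normalized. Centring arrays on their medians cannot test it, since centring lowers every sedentary line difference by the same amount. Array medians averaged 5.93 in sedentary HCR and 5.87 in sedentary LCR rats. With the values as deposited, no member was called in the fit that held only a mean for each group. Limma called 0 of 11 member probe sets in sedentary rats, where 4.99% of all probe sets were called, and 2 of 11 had an unadjusted p under 0.05, where 27.7% of all did. The 8 genes had a median difference of -0.06, with 7 lower and 1 higher, against a median of -0.02 over all genes. With arrays centred on their medians all 8 were lower, Fis1 was called and the median was -0.12, against -0.08 over all genes. After the quantile normalization 3 were lower and the median was 0.03, and without HCR sedentary rat 5, 6 were lower and the median was -0.03. In trained rats 0 of 11 were called, against 0.0966% of all, and 1 of 11 had an unadjusted p under 0.05, against 7.33% of all. Averaged over training, 0 of 11 were called, against 3.84% of all, and 1 of 11 had an unadjusted p under 0.05, against 24.1% of all.

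Fis1, at chromosome 12, 25345239 to 25360135 and read by 1371594_at, was 10.37, 10.24, 10.39 and 10.37 in HCR sedentary rats 3 to 6, against 10.54, 10.40, 10.49 and 10.48 in LCR sedentary rats 2, 3, 5 and 6. These groups did not overlap, but the gap between HCR rat 5 and LCR rat 3 was small. The difference was -0.14 ± 0.053 (0.911-fold, interval 0.843 to 0.984, unadjusted p = 0.0204, adjusted p = 0.117), and -0.15 ± 0.058 without HCR sedentary rat 5 (adjusted p = 0.171). It was -0.05 with quantile-normalized summaries (adjusted p = 0.657) and -0.19 with arrays centred on their medians (adjusted p = 0.0435). Among trained rats Fis1 read 10.28 to 10.41 in HCR and 10.31 to 10.40 in LCR, a difference of 0.004 ± 0.053 (adjusted p = 0.996). The trained LCR rats thus lay near both HCR groups, and the training difference of Fis1 within LCR was -0.13 ± 0.053 (unadjusted p = 0.026, adjusted p = 0.825). The HCR training difference minus the LCR one was 0.14 ± 0.074 (adjusted p = 0.549).

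Mff, at chromosome 9, 91455931 to 91484171, gave opposite signs with its probe sets. The dimmer one, 1384003_at, was 5.74, 5.59, 5.70 and 5.53 in HCR sedentary rats, against 5.50, 5.44, 5.20 and 5.43 in LCR sedentary rats, without overlap. Its difference of 0.25 ± 0.074 had the lowest adjusted p of any member in this comparison, 0.0604, and without HCR sedentary rat 5 it was 0.23 ± 0.081 (adjusted p = 0.154). With rat number as a replicate block it was 0.27 and was called (adjusted p = 0.0487). The bright probe set of Mff, 1371941_at, was 11.05, 10.97, 11.07 and 11.11 in HCR sedentary rats, against 11.11, 11.21, 11.18 and 11.10 in LCR sedentary rats, a difference of -0.10 ± 0.050 (adjusted p = 0.214), or -0.11 ± 0.056 without HCR sedentary rat 5 (adjusted p = 0.297). HCR rat 6 lay within the LCR range. Fis1 and the dimmer Mff probe set were 2 of 11 member probe sets whose sedentary lines did not overlap, where 18.3% of all probe sets showed this in either direction, a share close to that of the members.

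The bright probe set of Opa1 had the largest line difference of the 8 genes in trained rats. It differed by 0.22 ± 0.096 between HCR trained and LCR trained rats (1.17-fold, interval 1.02 to 1.34, unadjusted p = 0.0318, adjusted p = 0.627), and by 0.05 ± 0.096 between the sedentary groups (adjusted p = 0.767), or 0.04 ± 0.11 without HCR sedentary rat 5 (adjusted p = 0.857). The dimmer Opa1 probe set had the opposite sign, at -0.04 ± 0.14 in trained rats (adjusted p = 0.988) and -0.07 ± 0.10 averaged over training (adjusted p = 0.696). Averaged over training, the bright Opa1 probe set differed by 0.14 ± 0.068 (adjusted p = 0.23), and the other 7 genes lay between -0.09 and -0.01, with a median of -0.06 over the 8. With arrays centred on their medians, which lowers all of these differences alike, 7 of the 8 were lower. The median was then -0.10, against -0.04 over all genes. With quantile-normalized summaries 4 of the 8 were lower and the median was -0.003, and without HCR sedentary rat 5, 6 were lower and the median was -0.05. Mfn1 differed by -0.09 ± 0.059 (adjusted p = 0.353), Mtfp1 by -0.07 ± 0.056 (adjusted p = 0.487) and Pink1 by -0.06 ± 0.038 (adjusted p = 0.325). In that order these were -0.06, -0.05 and -0.08 without HCR sedentary rat 5 (adjusted p = 0.595, 0.639 and 0.3). For the interaction, the HCR training difference minus the LCR one, limma called 0 of 11 probe sets, where 0% of all were called, and 0 of 11 had an unadjusted p under 0.05, where 9.88% of all did.

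**Figure D4:**
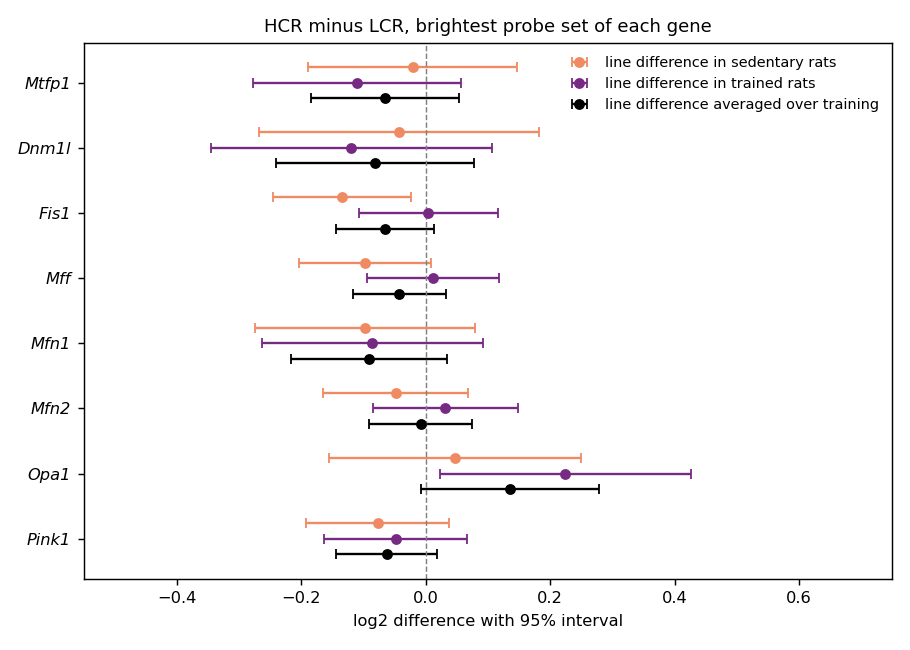
HCR minus LCR log2 difference with its 95% interval for the bright probe set of each gene, in sedentary rats (orange), in trained rats (purple) and averaged over training (black). The interval of Fis1 in sedentary rats (-0.14) lies below 0 and that of Opa1 in trained rats (0.22) above 0 before adjustment. None of these differences was called.

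The probe sets of one gene followed each other only for Dnm1l. Over the 16 arrays the pair correlated at r = 0.63 for Dnm1l, -0.06 for Opa1 and -0.53 for Mff, a description over arrays that share groups and normalization. The dimmer Opa1 probe set was split between high and low rats in the LCR sedentary group, with 6.76, 6.15, 6.84 and 6.16 in rats 2, 3, 5 and 6. The positions of these probe sets within their transcripts were not used here, so it was not settled whether a pair reads the same transcripts.

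Among the members, Mfn1 and Mtfp1 varied most alike over the 16 arrays, at r = 0.67, and at 0.32 once each group mean was subtracted. Dnm1l and Mtfp1 correlated at 0.36 over arrays and at 0.61 within groups. Of all genes, the ones most like Mtfp1 over the 16 arrays were Plaat3 (r = 0.87), Sdhaf1 (0.86) and Pmm1 (0.85), and within groups Myrip (0.84), Nfu1 (0.84) and Tbl1xr1 (0.83). The gene most like Mfn1 was Atf4 (0.91), that most like Opa1 was Crk (0.95), and that most like Dnm1l was Eif4a1 (0.93). For Fis1 it was Cfap418 (0.92), for Mff Insig2 (0.87), for Pink1 Bckdha (0.89) and for Mfn2 Rassf3 (0.85). These are the highest values among all named genes at n = 16, so they rank likeness and test nothing.

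Genes that act around the 8 members were read from lists of mitochondrial dynamics regulators and of mitophagy and selective autophagy, with mitochondrial content markers and biogenesis regulators beside them. These lists were chosen with earlier results of these data known. In sedentary rats, 3 of 40 measured dynamics regulators were called lower in HCR than in LCR and 0 were called higher, where 4.29% of all genes were called lower and 2.00% higher: Inf2, a formin that assembles actin at fission sites, at -0.53 ± 0.11 (adjusted p = 0.0248), and the mitochondrial transport GTPases Rhot2 at -0.37 ± 0.095 (adjusted p = 0.041) and Rhot1 at -0.34 ± 0.092 (adjusted p = 0.0449). Of 34 mitophagy and autophagy genes, 3 were called lower and 0 called higher: the kinase Tbk1 at -0.30 ± 0.073 (adjusted p = 0.0357), the translocase subunit Tomm7, which stabilises PINK1 on the outer membrane in human cells, at -0.25 ± 0.063 (adjusted p = 0.0383), and the autophagy scramblase Atg9a at -0.22 ± 0.061 (adjusted p = 0.0477). Tfam, which packages mitochondrial DNA, was the only content marker called of 20, at -0.27 ± 0.070 (adjusted p = 0.0404), and Tfb2m, a mitochondrial transcription factor, the only biogenesis regulator of 18, at -0.48 ± 0.097 (adjusted p = 0.0233). The medians of the 2 lists were -0.10 for dynamics and -0.14 for mitophagy, with 33 of 40 and 28 of 34 genes lower, against a median of -0.02 over all genes. Without HCR sedentary rat 5 the medians were -0.10 and -0.12, with 33 of 40 and 29 of 34 lower.

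These 8 sedentary calls rested on the scaling and on single arrays. With arrays centred on their medians the dynamics median was -0.16 with 36 of 40 lower, and the mitophagy median was -0.20 with 32 of 34 lower. The median over all genes was then -0.08, since centring lowers all of these differences alike. With quantile-normalized summaries only Inf2 of the 8 was still called (adjusted p = 0.0416). The dynamics median was then -0.01 with 22 of 40 lower, and the mitophagy median was -0.05 with 25 of 34 lower. Without HCR sedentary rat 4, LCR sedentary rat 3 or LCR sedentary rat 6, 0 of the 8 calls were kept, with adjusted p from 0.052, 0.053 and 0.0688 upward. Without HCR sedentary rat 5 or HCR sedentary rat 6, 1 was kept, which without rat 5 was Tfb2m (adjusted p = 0.0496). Without LCR sedentary rat 5, 2 were kept, and without any of the other 10 arrays at least 6 were kept. In trained rats 0 genes of the 4 lists were called.

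Averaged over training, Inf2 and Tfb2m were lower in HCR and stayed called with each of the 16 arrays left out. Inf2 was 7.00, 6.93, 6.94 and 6.99 in HCR trained rats and 7.34, 6.86, 6.85 and 6.93 in HCR sedentary rats, against 7.15, 7.38, 7.35 and 7.32 in LCR trained rats and 7.52, 7.65, 7.21 and 7.73 in LCR sedentary rats. Only HCR sedentary rat 3 reached into the LCR range. The difference was -0.43 ± 0.078 (adjusted p = 0.00989), and -0.40 with quantile-normalized summaries (adjusted p = 0.0149). Tfb2m differed by -0.36 ± 0.068 (adjusted p = 0.0128), and by -0.28 with quantile-normalized summaries (adjusted p = 0.0344). Tbk1, Tomm7, Tfam, Rhot2, the autophagy receptor Sqstm1 at -0.26 ± 0.071 (adjusted p = 0.0485) and the autophagy regulator Ambra1 at -0.17 ± 0.043 (adjusted p = 0.0362) were also called lower. Of the 4 lists these were 2 of 40, 4 of 34, 1 of 20 and 1 of 18 genes, where 3.38% of all genes were called lower. Other probe sets of 2 of these genes had the opposite sign: the dimmer one of Ambra1 differed by 0.08 ± 0.052 (adjusted p = 0.367), and of 3 others of Sqstm1 a pair differed by 0.11 ± 0.070 and 0.08 ± 0.048 (adjusted p = 0.338 and 0.315), while 1 differed by -0.22 ± 0.082 (adjusted p = 0.12). Of the 6, only Ambra1 was called with quantile-normalized summaries, and without HCR sedentary rat 4, HCR sedentary rat 5, LCR trained rat 3, LCR trained rat 4 or LCR sedentary rat 6 only 2 of the 8 calls were kept.

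With training, 0 genes of the 4 lists were called in either line or averaged over lines. In HCR, 33 of 40 dynamics regulators and 30 of 34 mitophagy genes were higher in trained rats, with medians of 0.09 for each list against 0.01 over all genes. With arrays centred on their medians, which raises all HCR training differences alike, 4 of 40 and 2 of 34 were lower. The medians were then 0.13 for each list against 0.04 over all genes. With quantile-normalized summaries 23 of 40 and 24 of 34 were higher, with medians of 0.03 and 0.04. Of all genes, 51.9% were higher, and 45.5% with quantile-normalized summaries. Without HCR sedentary rat 5 the counts were 33 of 40 and 27 of 34, with medians of 0.09 and 0.08. In LCR the counts were 20 of 40 and 18 of 34, with medians near 0. These HCR differences and the sedentary line differences share the HCR sedentary arrays. The content markers had a training median of 0.001 in HCR and -0.01 in LCR, and the 8 members had medians of 0.05 and 0.01.

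**Figure D5:**
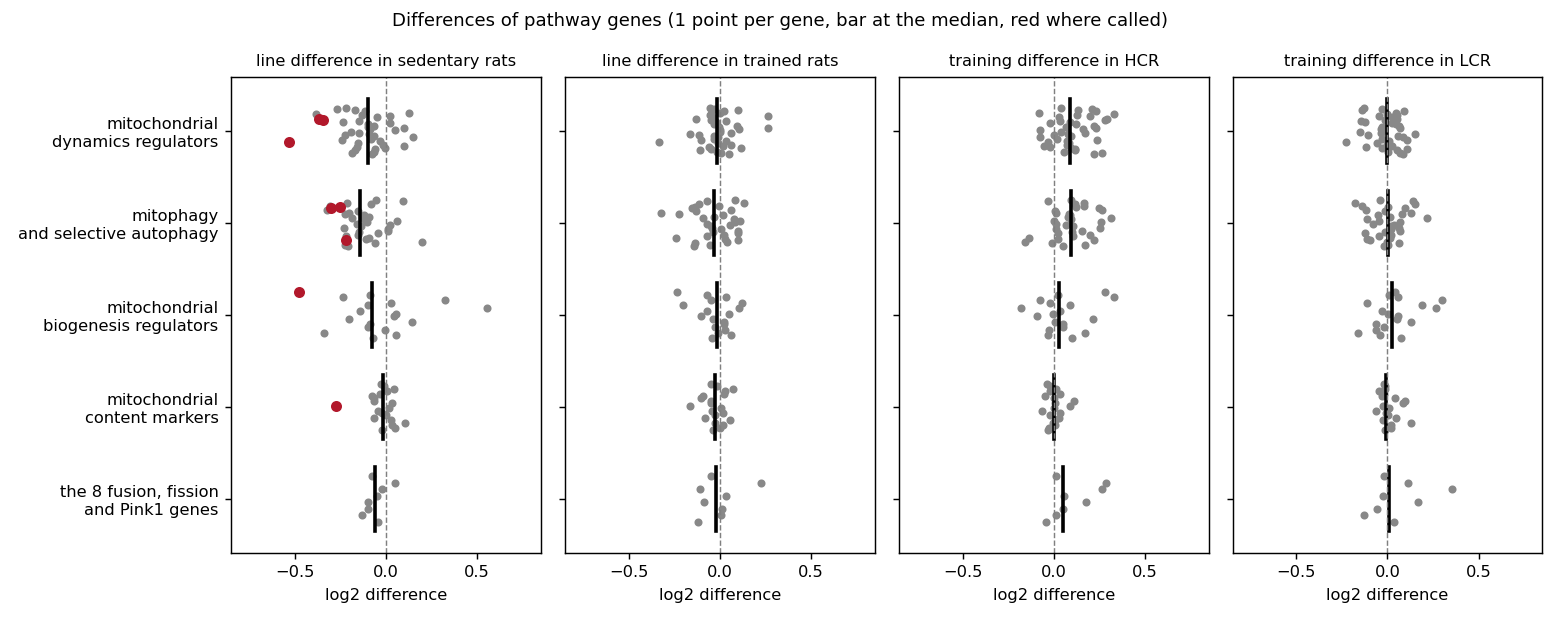
Log2 differences of the genes of 4 pathway lists and of the 8 members in 4 comparisons, HCR minus LCR in the left pair of panels and trained minus sedentary in the right pair. Each point is a gene, the black bar is the list's median, and red points are called. Red points occur only in the sedentary line comparison, all below 0. The dynamics and mitophagy medians there are -0.10 and -0.14.

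Markers of other cells of the ventricle differed beside these results, in both directions. Averaged over lines, 48.1% of all genes were higher in trained rats. All 7 macrophage markers were higher in trained than in sedentary rats averaged over lines, with a median of 0.16 and 0 called, next to the Mtfp1 difference, and without HCR sedentary rat 5, 6 were higher with a median of 0.16. Their summed linear level ran from 1798 to 1963 in HCR trained and from 1483 to 2100 in HCR sedentary rats, and from 1661 to 2496 in LCR trained and from 1575 to 2129 in LCR sedentary rats. Of 7 smooth muscle and pericyte markers, 6 were higher with training averaged over lines, with a median of 0.11 and 0 called, or 0.14 and 6 higher without HCR sedentary rat 5. Among them the smooth muscle myosin Myh11 differed by 0.23 ± 0.068 (adjusted p = 0.355) and the actin-binding Tagln by 0.27 ± 0.10 (adjusted p = 0.46), and in LCR by 0.34 ± 0.096 (adjusted p = 0.539) and 0.39 ± 0.15 (adjusted p = 0.766). Their sum ran from 1644 to 1834 in HCR trained and from 1434 to 1757 in HCR sedentary rats, and from 1383 to 1751 in LCR trained and from 1287 to 1580 in LCR sedentary rats. Other lists went lower in trained rats averaged over lines: 6 of 7 skeletal muscle, 5 of 6 adipocyte and 6 of 8 fibroblast markers. Their medians were -0.07, -0.03 and -0.02, with 0 called. Lower also were 4 of 7 endothelial and 4 of 7 lymphocyte markers, while 4 of 5 nerve and Schwann cell and 6 of 9 cardiomyocyte markers were higher.

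Between the sedentary lines 4 markers over all lists were called, where 2.00% of all genes were called higher and 4.29% lower. The calls were 1 each of 8 fibroblast, 7 smooth muscle and pericyte, 7 lymphocyte and 5 nerve and Schwann cell markers. Of 9 cardiomyocyte, 7 endothelial, 7 macrophage, 6 adipocyte and 7 skeletal muscle markers 0 were called. Over all lists the share called was thus close to that of all genes. Of the 4 called markers, 1 stayed called without HCR sedentary rat 5. Of 8 fibroblast markers, 7 were lower in sedentary HCR than in sedentary LCR rats, with a median of -0.31, or -0.29 without HCR sedentary rat 5, and Lum called at -0.41 ± 0.11 (adjusted p = 0.0403; -0.45 and 0.0825 without that rat), and their sum ran from 6888 to 7758 in HCR and from 7746 to 9572 in LCR. All 7 smooth muscle and pericyte markers were higher in sedentary HCR, with Acta2 called at 0.35 ± 0.092 (adjusted p = 0.0421), and 6 of 7 were higher without that rat, with Acta2 at 0.28 (adjusted p = 0.126). Of 7 lymphocyte markers 5 were higher, while Klrd1, a receptor of natural killer cells, was called lower at -0.84 ± 0.19 (adjusted p = 0.0291), or -0.91 without that rat (adjusted p = 0.0627). The lymphocyte sum ran from 404 to 444 in HCR sedentary and from 379 to 475 in LCR sedentary rats. Of 5 nerve and Schwann cell markers 4 were higher, with the adhesion molecule Chl1 called at 0.37 ± 0.064 (adjusted p = 0.0139) and also without that rat (adjusted p = 0.0468), and sums from 791 to 815 in HCR sedentary and from 764 to 855 in LCR sedentary rats. With each of the 16 arrays left out in turn, Chl1 stayed called in 15 fits, Klrd1 in 11, and Lum and Acta2 in 10 each, and with quantile-normalized summaries Lum was not called (adjusted p = 0.12). Averaged over training, Acta2 (0.31), Chl1 (0.24), Klrd1 (-0.86) and the skeletal muscle troponin Tnnt3 (0.20) were called, and without HCR sedentary rat 5 all of these but Tnnt3 (adjusted p = 0.0712). Of all genes, 1.54% were called higher and 3.38% lower averaged over training. The 9 cardiomyocyte markers had medians of -0.01 for the sedentary line difference and 0.01 for training averaged over lines. No marker was listed at 0, and the part of these cells in the member differences was not tested.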

How the data were processed

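RNA of 16 left ventricles was measured on Affymetrix whole-genome rat arrays. Per the submitters' processing notes and the design text, the authors made the deposited values with RMA, which corrects the background of perfect-match probes, quantile-normalizes arrays and summarises each probe set on a log scale, and used limma for their tests (versions not stated there). Deposited values run from 3.24 to 14.54 and were read as log2, since no source used here gives the base. With another base, signs and tests would hold but folds would not.

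Groups came from the sample titles. Of 31099 probe sets, 57 controls were left out and 31042 were fitted with limma 3.58.1 in R 4.3.3, over the 16 arrays together, with a mean for each group and no covariate, which left 12 residual degrees of freedom. The 7 comparisons made were line difference in sedentary and trained rats, the training difference in each line, their interaction, and both averages. Tests were two-sided, p-values were Benjamini-Hochberg adjusted over all probe sets of a comparison, and 0.05 was the highest adjusted p that counted as a call. The symbol ± gives a standard error unless marked SD, and 95% intervals are not adjusted. The fit was tested on simulated data. The number of arrays limits the precision, and low values understate change.

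Names came from the platform's annotation, where 20826 probe sets had 1 symbol, 436 several and 9780 none listed. Of the first, 20758 were found by gene ID in the RefSeq table of GRCr8, from which gene positions were taken. Promoter windows came from a separate GRCr8 set. Named genes are all members, up to 6 called genes per pathway list and direction, and the 3 genes most correlated with each member. The members and lists were chosen with earlier results of these data known. Alternatives were quantile normalization of the summaries, centring on array medians, a filter at the median level, 1 probe set per gene, an intensity trend, only the groups compared, rat number as a block, and leaving out each array. Figures were drawn with matplotlib 3.10.9.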

Additional observations from a re-analysis of the deposited data

Results flagged for a closer look

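Of 44 sets of 4 rats tested, 1 held a rat far from the others. Mfn1 in HCR trained rat 5 read 9.79, while the other HCR trained rats read 10.01, 10.03 and 10.02. By chance about 1 in 20 such sets would be marked, so 1 of 44 is no more than that.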

How the results depend on the processing

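No member was called in any of the 7 comparisons with any array left out, so the count of called members stayed at 0 in all of these fits. Of 471 differences under the other settings, 466 kept their direction and their side of the threshold, where a difference smaller than its SE was taken as having no direction. In sedentary rats 1 member probe set was called with arrays centred on their medians, Fis1 at -0.19 (adjusted p = 0.0435), and 1 with rat number as a replicate block, the dimmer Mff probe set at 0.27 (adjusted p = 0.0487). With quantile-normalized summaries, 3 line differences that exceeded their SE with the deposited values changed sign. They became 0.0144 for Mfn1 in sedentary rats, and averaged over training 0.0191 for the bright Mff probe set and 0.00751 for Mtfp1. Line differences smaller than their SE also changed sign, as the counts of lower genes above show. The cause of these changes was not tested. The Mtfp1 training difference ran from 0.28 to 0.32 over these settings, with adjusted p from 0.0903 to 0.274, the highest under the replicate block. The rats were not paired by number in the fit, and whether equal numbers mark pairs was not tested. Of 16 pairs of equal number, 6 had deviations correlated over 0.1, with r from -0.23 to 0.34.

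Counts over all probe sets moved more. In sedentary rats 1549 were called, against 543 with quantile-normalized summaries, 2460 with centring, 3000 under the replicate block, and 35 to 1994 with 1 array left out, of which 35 was without LCR sedentary rat 6, 103 without HCR sedentary rat 4 and 112 without HCR sedentary rat 5. In trained rats 30 were called, with 11 to 30 under other settings and 12 to 53 with an array left out. Averaged over training 1191 were called, with 723 to 1779 and 520 to 2575. For training, 0 were called in HCR (0 to 8, and 0 to 39), 1 in LCR (0 to 1, and 1 to 4) and 2 averaged over lines (0 to 5, and 0 to 11). Array signal over background was not used here, and the dimmer Dnm1l probe set lay near the floor of the array.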
